A study of Mus musculus and Homo sapiens with 110 samples.

Results

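Expression in A431 cells given the parent *ACTN1* siRNA was compared with that in untreated cells, from 6 libraries of 3 treated wells and 16 libraries of 16 untreated wells, 22 of the 110 libraries of the series. The members were chosen by the compound, dose and well in the sample labels. A431 is a human epidermoid carcinoma cell line. The parent siRNA, labelled Actn1-Parent, carries no phosphonate linkage and was given at 5 µM (well A1), 1 µM (well A3) and 0.2 µM (well A5), with 2 technical libraries per well that were summed. The controls, labelled UTC (untreated control), were 1 library each from wells in plate columns 21 and 23. Per the study's methods the siRNA was introduced by reverse transfection with Lipofectamine RNAiMAX and the cells were lysed several days later. Whether the untreated wells received lipid is not stated, so the comparison with untreated wells does not by itself separate the siRNA from transfection and plate position. Modified forms of the siRNA were transfected in the same plate columns, and their values are given beside those of the parent. Plate row and compound cannot be told apart, since each compound had a row of its own. Each dose was 1 well of 1 cell line, and nothing in the labels says that the wells came from separate cultures, so the p-values measure the spread between wells. Where the 3 parent wells form 1 group, that spread includes any difference between doses.

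An siRNA works through its guide strand, which is loaded into an Argonaute protein and directs it to cut an mRNA of matching sequence. The seed, a short stretch near the 5′ end of the guide, can also pair with the 3′ UTRs of other mRNAs and lower them modestly, as a microRNA does. *ACTN1* encodes alpha-actinin 1, a protein that cross-links actin filaments at focal adhesions and along stress fibres. The comparison addresses how much of the transcriptome changed in cells that received the unmodified siRNA.

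Values were measured per transcript with QuantSeq, a method that sequences only the 3′ end of polyadenylated RNA. The files list 228297 human transcripts by Ensembl identifier and pair none with a gene symbol, and no human annotation was used here. Transcripts of *ACTN1*, the markers of A431 cells and gene groups were therefore not identified, and knockdown of *ACTN1* was not assessed. Transcripts of *ACTN1* may still be among those tested, so those found lower may include the siRNA's own target. Transcripts are given by identifier, annotated length and level in CPM (counts scaled to a common library total).

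The libraries held 2663537 to 4180695 counts (median 2972246) in untreated wells and 2882006 to 3444160 in the parent libraries, so the summed parent wells were deeper (5975946 to 6599780). Untreated libraries had a count for 28605 to 32120 transcripts and parent libraries for 30897 to 31215. Of the 16369 transcripts that passed the filter on low counts, 2204 (13.5%) had whole-number counts in all 22 libraries. The counts of the rest were divided by the authors' quantification among transcripts that share sequence. The spread between wells differed between these sets. The biological coefficient of variation was 52% over all tested transcripts and 15.1% over the whole-count transcripts. Across tested transcripts, log2 CPM of the technical libraries of 1 well correlated at 0.86 to 0.871, and those of different parent wells at 0.847 to 0.883. Over the whole-count transcripts these correlations were 0.95 to 0.956 and 0.943 to 0.957. These are correlations across transcripts, which are not independent replicates. In neither set did libraries of the same well resemble each other more than the range spanned by libraries of different wells.

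Untreated wells A21, I21 and O21 stood apart from the other 13 untreated wells. On the first principal component of all tested transcripts they lay at 89.7 to 102, and the other untreated wells lay at −53.2 to 43.8. Over the whole-count transcripts they lay at 15.2 to 17.3 on that component, and the other untreated wells at −5.57 to 0.895. There the second component, with 12.5% of the variance, held the parent wells at −17, −13.5 and −12.1 for 5, 1 and 0.2 µM, and the untreated wells at −7.26 to 7.64. The parent wells thus did not overlap the untreated wells on this axis, with the 5 µM well farthest away. Over all tested transcripts the parent wells lay among the untreated wells on both components. Results are given with all 16 untreated wells, and beside them without these 3 wells, which were identified after the data were seen.

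**Figure D1:**
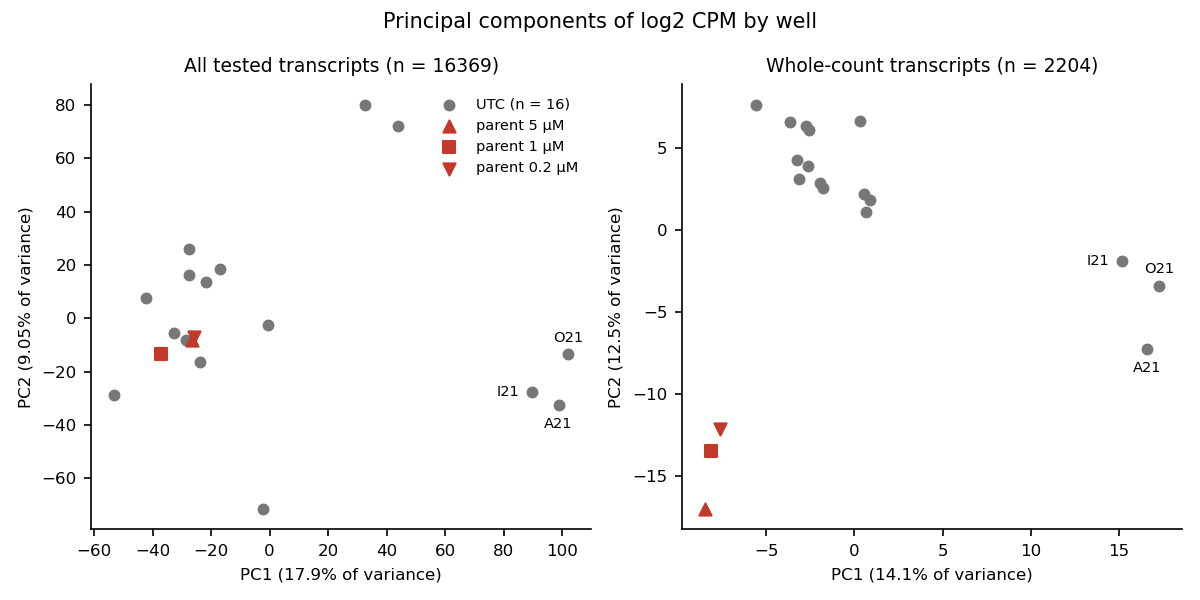
First and second principal components (PC1 and PC2) of log2 CPM in 16 untreated wells (grey circles) and 3 parent wells (red, 1 symbol per dose), over 16369 tested transcripts (left) and 2204 whole-count transcripts (right). The untreated wells A21, I21 and O21 lie to the right in both panels, and the parent wells lie below all untreated wells only in the right panel.

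Against the 16 untreated wells, 226 of 16369 transcripts met the study's criteria for a differentially expressed feature (DEG), namely a p under 0.01 and a q under 0.1 beside a more than 2-fold difference, when the 3 parent wells were taken as 1 group. Of these, 88 rose (0.538% of those tested) and 138 fell (0.843%). The sign was the same at all 3 doses in 86 of the 88 and in all 138, beside 8433 of all 16369 tested transcripts. The choice of DEGs on these same 3 wells favours such agreement, so it is a description and not a test. The split between risers and fallers turned with no filter on low counts, where 184 were higher and 81 lower. At an adjusted p under 0.05 (edgeR's quasi-likelihood test, Benjamini-Hochberg) and with no limit on the fold, 833 transcripts were called, 315 higher (1.92%) and 518 lower (3.16%). At an unadjusted p under 0.05 there were 2556 transcripts (15.6%). The median log2 change over all tested transcripts was 0.01. Without the 3 untreated wells that stood apart, 241 transcripts were DEGs, 99 higher and 142 lower, and 1064 of 16180 were called, 445 higher and 619 lower.

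In 368 transcripts (2.25%) all 3 parent wells lay above all 16 untreated wells, and in 441 (2.69%) they lay below. Against the other 13 untreated wells these numbers were 500 and 549. Among the DEGs, 77 of the 88 that rose and 97 of the 138 that fell had no overlap between the groups. These DEGs were chosen on the same wells, so the count describes them and tests nothing.

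The 4 transcripts described in full have the smallest p among those that rose and those that fell with no overlap between groups. ENST00000216117.9 is 1554 bases long and had whole-number counts in every library. It measured 109, 60.2 and 66.7 CPM in the parent wells at 5, 1 and 0.2 µM. In the 16 untreated wells it measured 10 at the lowest, 15.5 at the median and 25.8 at the highest. All parent wells lay more than 2-fold above the highest untreated well, and the 5 µM well was the highest. Here and below, the SD of the parent wells is over 3 doses, not over replicates of 1 dose. The mean was 78.5 ± 26.2 CPM (SD, n = 3) against 16 ± 3.82 (n = 16). This is a log2 change of 2.29 (95% interval 1.92 to 2.67; SE 0.179), or 4.9-fold, with an adjusted p of 2.61e-07 by edgeR. Its technical libraries measured 98.5 and 117 CPM at 5 µM, 53.3 and 61.6 at 1 µM, and 76.7 and 50.5 at 0.2 µM. The libraries of the 0.2 µM well thus lay farther apart than the 1 and 0.2 µM wells did.

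ENST00000526638.1, of 719 bases, measured 278, 267 and 240 CPM in the parent wells at 5, 1 and 0.2 µM. The untreated wells ran from 111 to 155 with a median of 132. The parent wells followed the order of dose and none overlapped the untreated wells. The means were 261 ± 19.7 CPM (SD, n = 3) and 131 ± 10.9 (n = 16), a log2 change of 1.0 (0.84 to 1.16; SE 0.0755; edgeR adjusted p of 2.42e-07). This transcript was not among the DEGs, which needed a change of over 2-fold. Its counts were not whole numbers, so reads were divided between it and other transcripts.

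ENST00000379016.7, of 7345 bases, measured 17.8, 17.4 and 19.4 CPM in the parent wells, where the untreated wells ran from 40 to 48.7 with a median of 44.8. The parent wells lay close together and far under the lowest untreated well, in no order of dose. The means were 18.2 ± 1.05 CPM (SD, n = 3) and 44.2 ± 2.83 (n = 16). Its log2 change was −1.28 (−1.45 to −1.11; SE 0.0808), which is 2.42-fold lower, with an adjusted p of 3.11e-08 by edgeR.

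ENST00000433822.1, of 537 bases, measured 92.2, 87.3 and 97.6 CPM in the parent wells and 182 to 243 (median 208) in the untreated wells. Again the groups did not overlap and the parent wells showed no order of dose. The means were 92.4 ± 5.17 CPM (SD, n = 3) and 207 ± 15.3 (n = 16). The log2 change was −1.17 (−1.33 to −1.0; SE 0.0804), or 2.24-fold lower, with an edgeR adjusted p of 7.27e-08. The counts of both fallers were divided between transcripts.

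**Figure D2:**
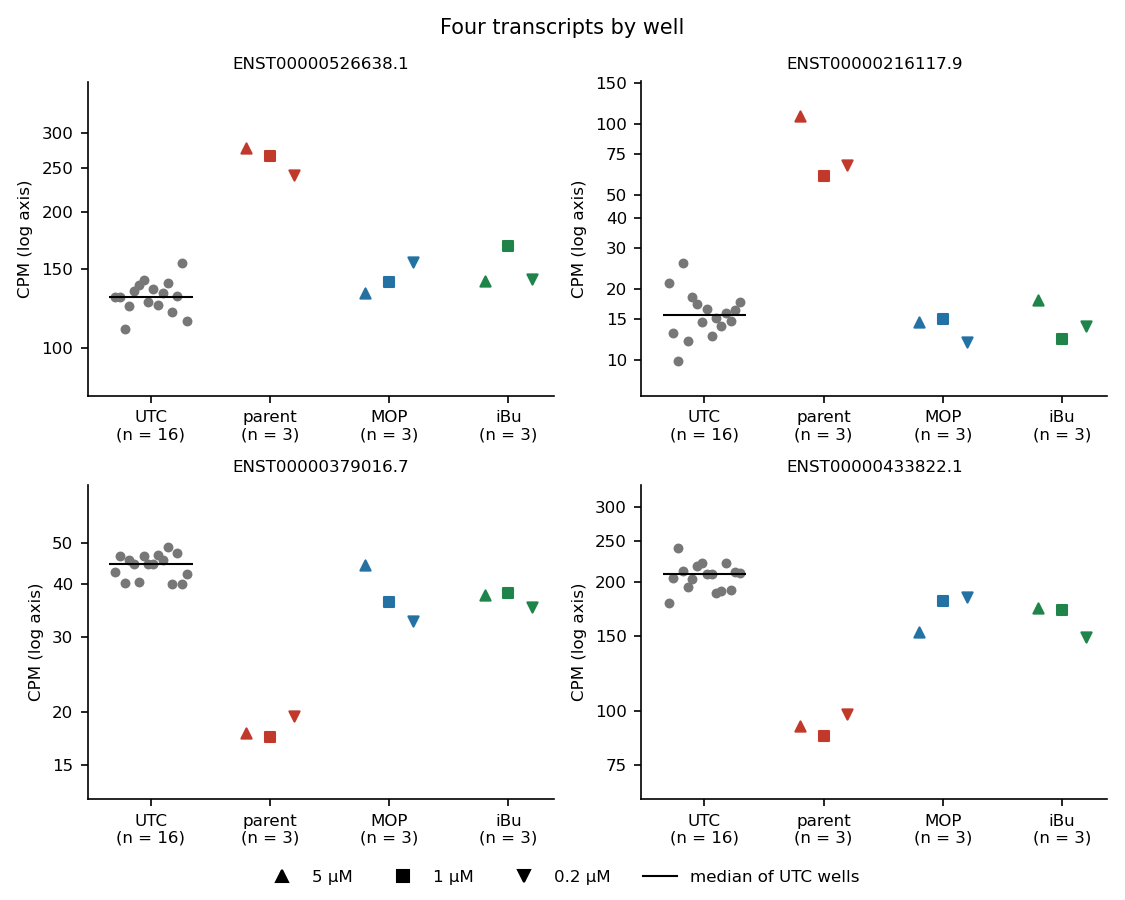
CPM (log axis) of 4 transcripts in each of 25 wells of A431 cells: 16 untreated wells (UTC, grey; line at their median) and 3 wells each of the parent, MOP and iBu siRNAs, with 1 symbol per dose. In the upper panels the parent wells lie above every other well, up to 278 CPM for ENST00000526638.1 and 109 for ENST00000216117.9. In the lower panels they lie under every other well, down to 17.4 and 87.3 CPM.

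The DEGs that rose had a median log2 change of 1.29 (1.0 to 5.26), and 17 of 88 exceeded 4-fold. Those that fell had a median of −1.29, and 20 of 138 exceeded 4-fold. Of all 16369 tested transcripts, 318 exceeded 4-fold in either direction. For 5 of the fallers, no count was seen in any parent well, beside 144 of all 16369 tested transcripts. The fitted changes of these 5 depend on the prior count. With their values set at the floor of 3 counts over the 3 parent wells the median stayed at −1.29, and the lowest value among the other fallers was −4.01. No DEG was at 0 in all untreated wells. The risers had a median level of 6.29 CPM and the fallers of 9.54, beside 9.6 for all tested transcripts. Together the risers took 0.507%, 0.436% and 0.432% of the counts at 5, 1 and 0.2 µM, and 0.162% to 0.192% in untreated wells. The fallers took 0.164%, 0.182% and 0.194%, and 0.413% to 0.477% in untreated wells.

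In the whole-count transcripts no read was divided between transcripts. Fitted on their own, 32 of 2204 rose (1.45%) and 37 fell (1.68%) as DEGs, larger shares than over all tested transcripts, a difference that was not tested. Of these, 25 of the 32 and 25 of the 37 had no overlap between groups, beside 195 of all 2204 whole-count transcripts, by CPM scaled over all tested transcripts. In the fit of all tested transcripts, these whole-count risers reached a log2 change of 3.23 and the fallers −2.90, less than the extremes over all tested transcripts. This set was chosen after the data were seen. Of all DEGs from the fit of 16369 transcripts, 26 of the 88 risers (29.5%) and 32 of the 138 fallers (23.2%) had whole counts. A further 7 risers and 10 fallers had values identical to another transcript in every library, as had 833 tested transcripts in all, and are not separate measurements.

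**Figure D3:**
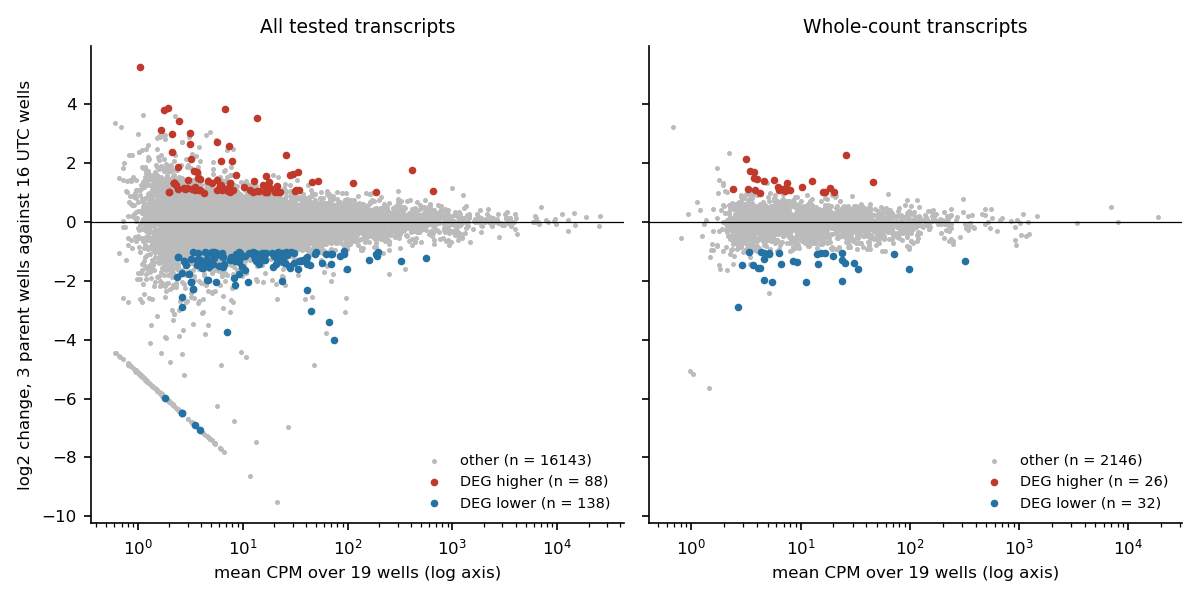
Log2 change of the 3 parent wells against 16 untreated wells by mean CPM over the 19 wells (log axis), for all 16369 tested transcripts (left) and the 2204 with whole-number counts (right); red and blue points are DEGs from the fit of all tested transcripts, higher and lower. The diagonal line of points at the lower left comprises transcripts with no count in the parent wells, whose change depends on the prior count, and it is nearly empty in the right panel.

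The number of DEGs was larger at higher doses. With each well fitted as its own group against the same 16 untreated wells, the 5 µM well had 71 DEGs higher (0.434%) and 111 lower (0.678%). The 1 µM well had 29 higher (0.177%) and 66 lower (0.403%), and the 0.2 µM well 20 higher (0.122%) and 42 lower (0.257%). At every dose more transcripts were lower than higher, but with no filter on low counts more were higher, 70 against 39 at 5 µM, 39 against 22 at 1 µM and 25 against 18 at 0.2 µM. Without untreated wells A21, I21 and O21 the counts were 204, 118 and 82 in place of 182, 95 and 62. Each lone well was assumed to vary like the untreated wells, so a dose has no replicate of its own, and the 3 comparisons share their controls. Against only the 8 untreated wells of column 21, which hold all 3 wells that stood apart, the counts were 80, 23 and 2, and the 2 at 0.2 µM were 1 higher and 1 lower.

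A slope over the logarithm of dose within the parent wells was called for 0 of 16369 transcripts (0%) at an adjusted p under 0.05 by edgeR. At an unadjusted p under 0.05 there were 195 (1.19%). With 3 wells, a slope leaves 1 degree of freedom among them, and an absent call does not show that levels were the same at all doses. For ENST00000216117.9 the slope was 0.35 on the log2 scale per 5-fold of dose (−0.09 to 0.79). For ENST00000526638.1 it was 0.11 (−0.08 to 0.30). For ENST00000379016.7 and ENST00000433822.1 it was −0.06 (−0.24 to 0.11) and −0.04 (−0.22 to 0.13). All 4 intervals include 0.

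The median log2 change of the 88 risers was 1.43, 1.26 and 1.20 at 5, 1 and 0.2 µM, and that of the 138 fallers −1.50, −1.26 and −1.18. The median over all tested transcripts was within 0.01 of 0 at each dose. The change was largest at 5 µM, next at 1 µM and smallest at 0.2 µM in 39 risers (44.3%) and 43 fallers (31.2%), beside 19.1% of all tested transcripts. The reverse order held in 8 risers (9.09%) and 9 fallers (6.52%), beside 15.1%. These shares describe 1 well per dose and were not tested.

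Called fallers were more frequent among long and among abundant transcripts. Annotated length had a median of 2150 bases over all tested transcripts, 2360 over the 315 called higher and 3300 over the 518 called lower. In 4 length groups of equal size, from the shortest to the longest, 1.56%, 2.20%, 3.71% and 5.18% of transcripts were called lower, and 1.29%, 2.30%, 2.10% and 2.0% were called higher. Without the 3 untreated wells that stood apart, the shares called lower were 1.71%, 2.47%, 4.50% and 6.63% and those called higher 2.62%, 3.07%, 2.92% and 2.40%. The share called higher in the shortest group thus moved by about 2 times, and there it exceeded the share called lower. In 4 groups by mean CPM from the lowest to the highest, 0.44%, 1.86%, 3.59% and 6.77% were called lower and 0.733%, 1.39%, 2.15% and 3.42% higher. The test finds smaller changes at higher counts, and the part of abundance in the difference by length was not tested. Among whole-count transcripts the shares called lower in 4 length groups were 4.54%, 5.63%, 6.17% and 7.62%. For the larger changes that make a DEG, the shares of fallers by length were 0.513%, 0.733%, 1.08% and 1.05% over all tested transcripts and 1.63%, 1.45%, 2.0% and 0.726% over the whole-count transcripts. The whole-count shares rest on only 9, 8, 11 and 4 fallers, taken from the fit of all tested transcripts. The whole-count length groups also had other bounds, with the shortest group reaching 1720 bases in place of 951. Whether the increase with length holds among the whole-count DEGs cannot be told from so few fallers. QuantSeq counts 1 end of a transcript, so its counts are not divided by length.

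**Figure D4:**
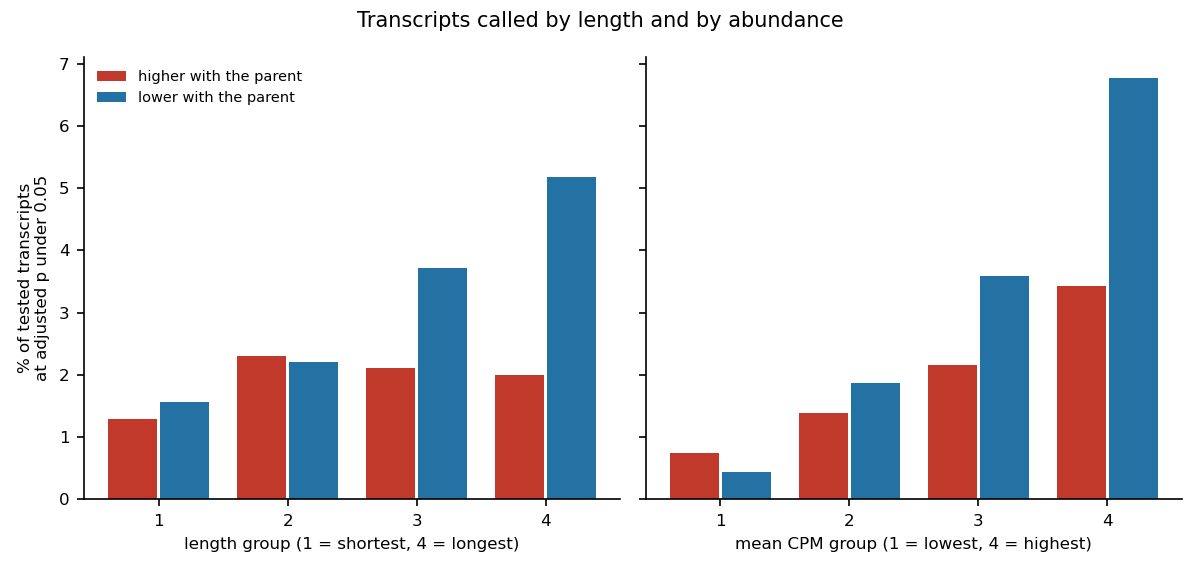
Percentage of tested transcripts called at an adjusted p under 0.05 in the 3 parent wells against 16 untreated wells, higher (red) or lower (blue), in 4 groups by annotated length (left) and by mean CPM (right), with 4092 or 4093 transcripts in each group. The share called lower increases from 1.56% to 5.18% over length and from 0.44% to 6.77% over CPM, and the share called higher is 1.29% in the shortest group and 2.0% to 2.30% in the others.

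The same siRNA was also given in modified forms at the same doses, with 1 phosphonate linkage in the seed region of the guide: methoxypropyl phosphonate (MOP) in wells C1, C3 and C5 and isobutyl phosphonate (iBu) in wells E1, E3 and E5. The parent wells were compared with them directly in a fit of all 25 wells and 17471 transcripts with dose as a block, in 2 pairs of compounds. Parent and MOP differed in 291 transcripts (1.67%) at an adjusted p under 0.05 (edgeR), 66 higher and 225 lower with the parent. Parent and iBu differed in 268 (1.53%), 61 higher and 207 lower. At an unadjusted p under 0.05 these were 1683 and 1604. Without the 3 untreated wells that stood apart, which enter this fit through the spread, the counts were 400 and 354. With the 5, 1 or 0.2 µM wells of every compound left out, they were 81, 89 and 135 for MOP and 70, 98 and 100 for iBu. Adjustment was over transcripts within each pair. The split depended on the transcripts used: over the whole-count transcripts 186 differed for MOP, 82 higher and 104 lower, and 177 for iBu, 75 higher and 102 lower.

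For ENST00000216117.9 the MOP wells measured 14.5, 15 and 12 CPM and the iBu wells 18, 12.4 and 14 at 5, 1 and 0.2 µM, all within the range of the untreated wells. The parent exceeded MOP by 2.45 on the log2 scale (1.92 to 2.99; edgeR adjusted p of 1.16e-05) and iBu by 2.38 (1.85 to 2.91; 1.64e-05). For ENST00000526638.1 the MOP wells measured 132, 140 and 156 CPM and the iBu wells 141, 168 and 142. The 0.2 µM MOP well and the 1 µM iBu well lay above the highest untreated well. The parent was higher by 0.87 (0.65 to 1.10) than MOP and by 0.80 (0.57 to 1.03) than iBu on the log2 scale, with edgeR adjusted p of 5.68e-05 and 0.000147.

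ENST00000379016.7 measured 44.4, 36.2 and 32.7 CPM with MOP and 37.6, 38 and 35.2 with iBu at 5, 1 and 0.2 µM. Of these only the 5 µM MOP well lay within the untreated range. The log2 difference of the parent was −1.04 (−1.26 to −0.83) from MOP and −1.02 (−1.23 to −0.80) from iBu (edgeR adjusted p of 1.16e-05 and 1.2e-05). ENST00000433822.1 measured 153, 181 and 185 CPM with MOP and 174, 172 and 149 with iBu. The iBu wells and the 5 µM MOP well lay under the lowest untreated well. The log2 difference of the parent was −0.91 (−1.12 to −0.69) and −0.84 (−1.05 to −0.63), with edgeR adjusted p of 2.25e-05 and 4.81e-05. These 4 transcripts were picked on the parent wells that enter these differences, which can enlarge them.

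Against the same untreated wells in that fit, 250 transcripts (1.43%) were DEGs with the parent, 6 (0.0343%) with MOP and 7 (0.0401%) with iBu. The 88 risers of the parent had median log2 changes of 0.39, 0.29 and 0.17 with MOP and 0.33, 0.29 and 0.33 with iBu at 5, 1 and 0.2 µM. The 138 fallers had medians of −0.25, −0.18 and −0.11 with MOP and −0.30, −0.21 and −0.20 with iBu. Over all tested transcripts these medians were within 0.01 of 0. The comparisons with the 3 compounds share their untreated wells, and the transcripts were chosen for their change with the parent, so these medians are a description.

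Some members also changed by more than 2-fold in the wells of the modified forms. Of the 138 fallers, 14, 5 and 9 were lower by over 2-fold with MOP at 5, 1 and 0.2 µM, and 12, 11 and 16 with iBu. Of the 88 risers, 8, 3 and 4 were higher by over 2-fold with MOP and 8, 7 and 7 with iBu. In all 6 of these wells this held for 3 fallers and for 0 risers. These 3 were looked for after the values of the modified forms were seen. Whether any of them is a transcript of *ACTN1*, the target of all 3 compounds, was not determined. How many of all tested transcripts changed by over 2-fold in the wells of the modified forms was not counted. The counts above thus do not set the members apart from other transcripts.

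The first, ENST00000193403.10 of 3779 bases, measured 7.57, 7.58 and 6.94 CPM with the parent at 5, 1 and 0.2 µM. It measured 8.85, 13.8 and 7.1 with MOP, 5.66, 11.1 and 9.91 with iBu and 34.7 to 126 (median 82.5) in untreated wells. All 9 treated wells lay under all untreated wells. Its log2 change with the parent was −3.39 (−4.20 to −2.59), and the parent differed from MOP by −0.39 (−1.24 to 0.46) and from iBu by −0.23 (−1.09 to 0.62).

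The second, ENST00000553882.1 of 2636 bases, measured 2.69, 7.42 and 6.13 CPM with the parent. It measured 5.84, 3.74 and 7.29 with MOP and 8.91, 5.91 and 3.54 with iBu. The untreated wells ran from 28.4 to 118 with a median of 96.9, so again no treated well overlapped them. Its log2 change with the parent was −4.01 (−4.97 to −3.04), with differences of −0.05 (−1.10 to 1.0) from MOP and −0.18 (−1.24 to 0.87) from iBu.

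The third, ENST00000612821.4 of 2402 bases, had whole counts in the parent and untreated libraries. It measured 2.52, 3.39 and 3.39 CPM with the parent and 4.42 to 24 (median 11.8) in untreated wells. With MOP it measured 2.84, 4.93 and 3.36, and with iBu 4.67, 2.51 and 3.54, where the 1 µM MOP and 5 µM iBu wells overlapped the untreated wells. Its log2 change with the parent was −2.04 (−3.23 to −0.86), with differences of −0.26 (−1.59 to 1.08) and −0.23 (−1.57 to 1.12). None of these 6 differences between compounds passed an adjusted p under 0.05 by edgeR, and each interval reaches past a 2-fold lower level with the parent.

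**Figure D5:**
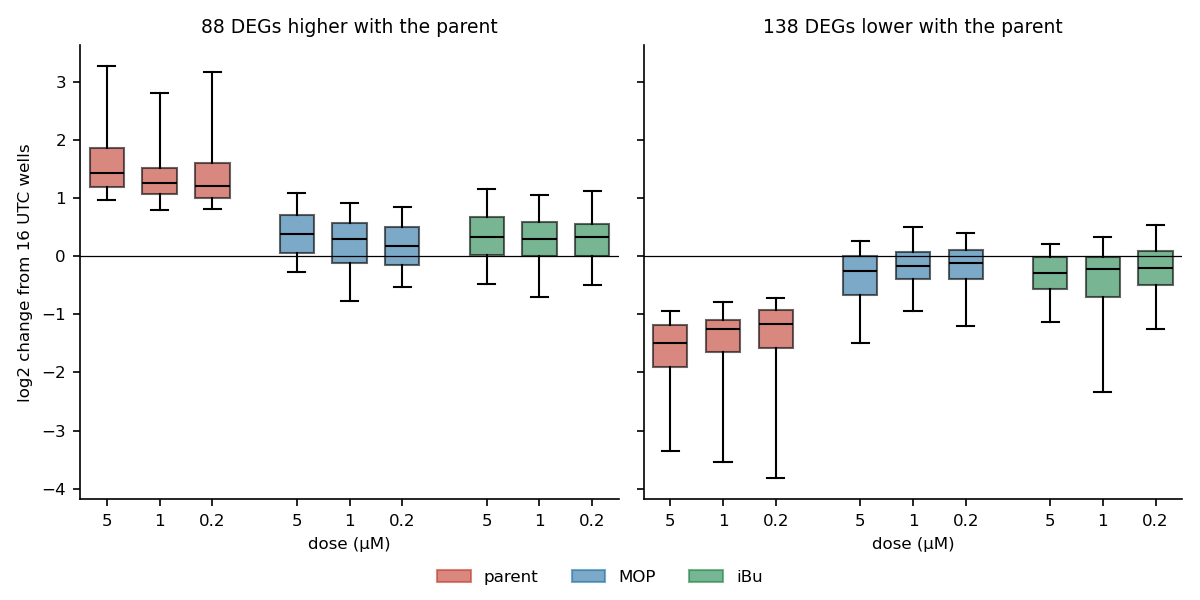
Log2 change from the 16 untreated wells of the 88 DEGs higher (left) and the 138 lower (right) with the parent, by compound and dose, 1 well each; boxes give the quartiles and median over transcripts and whiskers the 5th and 95th percentiles. The parent medians run from 1.43 to 1.20 and from −1.50 to −1.18 with falling dose, and those of MOP and iBu lie between 0.17 and 0.39 and between −0.30 and −0.11.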

How the data were processed

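RNA of A431 cells was profiled with QuantSeq 3′ FWD libraries. Per the submitters' processing notes, the authors used STAR and Salmon 0.7, and the file names say that duplicates were removed. The human genome build and annotation release were not given in the sources used here, where the notes for these samples list mm10, a mouse build. Per library, the authors deposited expected counts, 1 estimate by Salmon for each transcript, without normalization. Expected counts of the 2 technical libraries of a well were summed and rounded.

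The 3 parent wells were compared with 16 untreated wells in R 4.3.3 with edgeR 4.0.16 (filterByExpr, TMM, quasi-likelihood test), with each dose as its own group, with a slope over log dose, and with the MOP and iBu wells in a fit of 25 wells. DEGs needed over 2-fold change, p under 0.01 and q under 0.1; called transcripts needed an adjusted p under 0.05. Log2 CPM used a prior count of 2. A whole count lay within 0.001 of an integer. The fit of the 3 parent wells as 1 group was tested on counts simulated with its own estimates of spread. The fits by dose, of the slope and of 25 wells were not tested in this way. Alternatives included RLE size factors, DESeq2 1.42.0 and other filters, libraries and wells.

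Genes could not be assigned, so the planned *ACTN1* check and gene lists were not run, and transcripts were tested. The transcripts described in full were the 2 risers and 2 fallers with the smallest p and no overlap with untreated wells. The comparison and lists were chosen with earlier results of these data known. Nominal concentrations in the labels of untreated wells were not used.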

Additional observations from a re-analysis of the deposited data

Results flagged for a closer look

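The 4 transcripts described in full differed between the parent and each modified siRNA by a direct test (edgeR, adjusted p under 0.05, 3 wells each). They are listed here for that reason, and many other transcripts passed the same test. ENST00000216117.9 was higher with the parent by 2.45 against MOP and by 2.38 against iBu on the log2 scale, and ENST00000526638.1 by 0.87 and 0.80. The log2 differences were −1.04 and −1.02 for ENST00000379016.7 and −0.91 and −0.84 for ENST00000433822.1. In each case all 3 parent wells lay beyond all 6 wells of the modified forms. The transcripts had been picked on the same parent wells, and the part of that choice in the size of the differences was not tested.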

How the results depend on the processing

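The 4 transcripts described in full kept their direction and their adjusted p under 0.05 in the fits of every alternative that tested them. This held for the parent against untreated wells and against MOP and iBu. The 226 DEGs became 362 with DESeq2 (124 higher and 238 lower), 145 with a mean count of at least 20, 833 with no limit on the fold and 69 over whole-count transcripts, where fewer transcripts were tested. Leaving out 1 parent well gave 157 to 230 (157 without the 5 µM well). Technical library 1 alone, nearer in depth to the untreated libraries than the summed wells, gave 293 (97 higher and 196 lower). Technical library 2 alone gave 290 (96 higher and 194 lower). The untreated wells of column 21 alone gave 226 and those of column 23 alone 254. With no filter on low counts there were 265, of which 184 were higher and 81 lower in place of 88 and 138, and with each dose as its own group 260, 75 higher and 185 lower. The cause of these shifts in the split was not tested.

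For single wells at 5, 1 and 0.2 µM, in place of 182, 95 and 62 DEGs, DESeq2 gave 301, 186 and 136, technical library 1 alone 291, 161 and 131, and technical library 2 alone 298, 230 and 155. No filter on low counts gave 109, 61 and 43, with more higher than lower at each dose, the untreated wells of column 21 alone 80, 23 and 2, and whole-count transcripts 60, 29 and 22. The number of DEGs decreased from 5 to 1 to 0.2 µM in each of these alternatives. Over whole-count transcripts parent and MOP differed in 186 transcripts and parent and iBu in 177. With 1 dose left out, parent and MOP differed in 81, 89 and 135 transcripts and parent and iBu in 70, 98 and 100 (without the 5, 1 and 0.2 µM wells). The cause was not tested. RLE size factors moved no count by over 1.5 times. The slope over dose was called for 0 transcripts in each alternative run.

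The alternative of transcripts against genes was not run, since genes could not be assigned. No paired analysis was possible because the untreated wells carry no number that links them to a treated well. Single wells and a median of 2972246 counts per untreated library limit the calls at low levels, and intervals cover the spread between wells of 1 experiment.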
